A study of Mus musculus with 36 samples.

Results

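Thymic epithelial cells form the stroma in which T cells mature, and 10 genes by which these cells are commonly recognised were followed through RNA sequencing of mouse thymus, spleen and liver. The genes are Krt5, Krt8, Krt14, Krt18, Foxn1, Psmb11, Prss16, Aire, Ly75 and Ccl25. They were found by matching the NCBI gene number of each row to its mouse symbol, and all 10 had a row among the 19001 genes of a paired-end table and among the 17697 genes of a single-end table. The paired-end table held tissues of mice with wild-type p53 (wt), untreated or taken 3 h after 2 Gy of X-rays. The single-end table held tissues of wt mice and of mice whose p53 lacks its C-terminus (d24), and all of these are titled xray. Each of the 12 groups had 3 libraries of total RNA from organ pieces. Every library, d24 included, is tagged WT as cell type, and 9 titled xray are tagged control. The labels give no strain or age and do not say that replicates came from separate animals, so p-values measure the spread between these libraries, which may in part be technical.

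The thymic cortex and medulla carry different epithelium. Cortical epithelial cells attract precursors from the blood, commit them to the T lineage and present the peptides on which positive selection depends. Medullary epithelial cells display proteins of other organs to the surviving thymocytes, which removes self-reactive cells. Both descend from a common progenitor and require the transcription factor FOXN1, encoded by Foxn1. Epithelial cells are a small minority of the organ, which is mostly thymocytes. In such bulk samples, fewer cells of a type and less RNA per cell cannot be told apart.

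FOXN1 recognises a short core, GACGC, and the windows searched for it ran from 250 bases before to 50 bases after RefSeq starts on GRCm38.p6. They were found for 9 of the 10 genes, Ccl25 having 2. The window of Krt14 (chr11:100205981-100206280) lies wholly inside the gene, whose 5′ end is at 100207510, so the bases before that end were not searched. The window of Foxn1 (chr11:78386559-78386858) is set on a start inside the gene, whose 5′ end is at 78386783. With both strands searched, the core occurred in 4 of the 10 windows, against 27.2% of all 32851 windows of the same length. Each occurrence is shown to let the letters around it be compared, 5′ to 3′ on the gene's strand with 10 bases on either side, the core or its reverse complement in capitals.
Psmb11, chr14:54625061-54625085, plus strand: ctgacaggtgGCGTCttcagagtgt
Psmb11, chr14:54625238-54625262, plus strand: cttctccacaGCGTCctcctcctcc
Ccl25, chr8:4325144-4325168, plus strand: ttgaagaagcGACGCtcattggttg
Ccl25, chr8:4325212-4325236, plus strand: cttcctgtcgGCGTCgtccgcggtg
Aire, chr10:78043785-78043809, minus strand: gagtatcagaGCGTCctgaacccaa
Krt5, chr15:101712876-101712900, minus strand: gccacccacaGCGTCctgttgaacg

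The 2 cores of Psmb11 began 239 and 62 bases before its start, within an exon of a longer annotated transcript of the gene. The first core of Ccl25 began 56 bases before the start, in a stretch that is also exon of Elavl1 on the other strand. That of Aire lay 189 bases before the start, outside any annotated exon, and that of Krt5 lay 15 bases after it. A consensus half-site of p53 occurred in 3 windows (Krt5, Foxn1 and Psmb11), against 8.36% of all windows. A match of letters is a description and not a binding site.

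The members are spread over 7 chromosomes. In RefSeq on GRCm38.p6, the genes of the simple-epithelial keratins Krt8 (chr15:101996711-102004342, minus strand) and Krt18 (chr15:102028216-102032026, plus strand) face away from each other across 23873 bases, and that of the basal keratin Krt5 (chr15:101707069-101712905) lies 283805 bases from Krt8. Krt14, the partner of Krt5 in basal filaments, is at chr11:100203162-100207510, and Foxn1 at chr11:78357577-78386783. Psmb11, the catalytic subunit that defines the thymoproteasome of cortical cells, is at chr14:54625310-54629556, and Prss16, a serine protease of the cortex that shapes the peptides for CD4 cell selection, at chr13:22002176-22009741. Ly75 (chr2:60292103-60383273) encodes CD205, an endocytic receptor of cortical epithelium and dendritic cells. Ccl25 (chr8:4325205-4360020) encodes the chemokine that draws CCR9-bearing precursors. Aire (chr10:78030022-78043610) encodes the regulator through which medullary cells express proteins of other organs. In GENCODE M21, which also gave the exon lengths, Aire overlaps Dnmt3l on the other strand, Ccl25 overlaps Elavl1, Ly75, Krt5 and Krt8 overlap noncoding genes, and Krt8 has 1 named pseudogene. The labels do not say whether counting used the strand, so reads of a gene and its overlapping partner cannot be told apart.

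Depth and labels were checked before the members were compared. Values are the deposited signal, reads of a gene per 1000000 reads of a scaled library size, and differences are of log2(signal + 0.5) with their SE. The thymus libraries held 44348579 to 60522646 reads in the paired-end table and 21095973 to 38042710 in the single-end one, and 1 read was worth a signal of 0.00991 to 0.0135 in the first and 0.0171 to 0.0309 in the second. Trp53, which carries the deletion, had a signal of 77.9 to 101 in paired-end and 96.9 to 145 in single-end thymus, and total counts of a gene cannot check a C-terminal deletion. A panel of 10 p53 targets that respond to radiation did not follow the labels of the single-end thymus. Its summed signal was 213 to 232 in untreated and 1139 to 1243 in X-ray libraries of the paired-end table, but 252 to 296 in single-end wt, whose title and treatment tag both say X-ray, and 484 to 670 in d24, whose title says xray while the tag says control. The tables were scaled separately, so these sums are compared across them only roughly. The library groups of the single-end thymus are therefore called by their titles, and the difference between d24 and wt cannot be told apart from a difference in treatment. Xist, which marks female tissue, was at 452 to 515 in 1 of 3 untreated and 2 of 3 X-ray libraries and under 0.149 in the others of the paired-end thymus. In the single-end thymus it was at 624 or more in all 3 d24 and 2 of 3 wt libraries, and at 0.772 in wt replicate 2. Untreated, X-ray and single-end wt thymus thus each mixed the sexes, so the libraries of these groups did not all come from the same animal. Sex was not balanced between untreated and X-ray thymus.

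In untreated thymus every member was detected in every library. Per kilobase of annotated exon, Prss16 (119.9 ± 4.70, SD, n = 3) and Krt18 (117 ± 6.37) had the highest levels and did not differ beyond their spread. Krt8 followed at 97.0 ± 2.79 per kilobase, then Ccl25 at 55.8 ± 2.68, Krt5 at 30.0 ± 2.96 and Psmb11 at 19.0 ± 1.15. Krt14 (9.90 ± 3.42) and Ly75 (7.29 ± 0.708) overlapped. The regulators were lowest, Foxn1 at 3.35 ± 0.596 and Aire at 1.92 ± 0.246. The exon length joins all annotated transcripts of a gene, 7445 bases for Ccl25 and 1437 for Krt18, and a level per kilobase depends on it.

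Most of these transcripts were low or absent in spleen. In untreated libraries all 10 members were called higher in thymus than in spleen, as were 36.7% of all genes tested. For 8 of the 10 this count is fixed by the minimum required for testing, a signal of 1 in 3 libraries, which they reached only through thymus, so their levels are given as a description and nothing is read from the count. Foxn1 had 0 reads in all 3 untreated spleen libraries, where 3 reads, the limit that a count of 0 allows for counting error alone, would be a signal of at most 0.0569. Psmb11 had 1 read and Krt5 had 2 reads over the same 3 libraries together. Krt8 (0.239 ± 0.0991), Krt18 (0.179 ± 0.0452), Prss16 (0.315 ± 0.0118) and Aire (0.217 ± 0.0913) were detected at a low level. Ly75, which dendritic cells of the spleen also carry, stood at 5.54 ± 1.03 in spleen and 50.3 ± 4.89 in thymus, a difference of 3.08 ± 0.14 (limma, adjusted p = 1.34e-08). Ccl25 stood at 1.65 ± 0.226 in spleen and 415 ± 19.9 in thymus (7.60 ± 0.10, adjusted p = 9.48e-12).

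Liver shared the simple-epithelial keratins, which hepatocytes and bile duct cells are known to make, and little else. Of the 10 members, 8 were called higher in thymus than in liver, as were 41.3% of all genes, and Krt8 was lower, as were 45.5% of all genes. For 6 of the 8 (Krt5, Krt14, Foxn1, Psmb11, Prss16 and Aire) the call is again fixed, since they reached the minimum only through thymus. Krt8 was 190.0 ± 5.47 in thymus and 241 ± 16.7 in liver (-0.34 ± 0.08, adjusted p = 0.00232). Krt18 was 169 ± 9.16 in thymus and 172 ± 25.3 in liver (-0.02 ± 0.11, adjusted p = 0.874). Both directions turn under quantile scaling, to 0.76 for Krt8 and 1.00 for Krt18, a scaling that moves the median of all genes from -0.08 to 0.33, so the keratins cannot be ordered between these organs. Foxn1 and Aire had 0 reads in the untreated liver libraries, with a limit of at most 0.0977. Ly75 was 8.73 ± 1.05 in liver (thymus higher by 2.46 ± 0.12) and Ccl25 was 4.33 ± 0.411 (thymus higher by 6.43 ± 0.09). When 1 untreated thymus library was left out, 2 members against spleen and 4 against liver could still be tested.

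**Figure D1:**
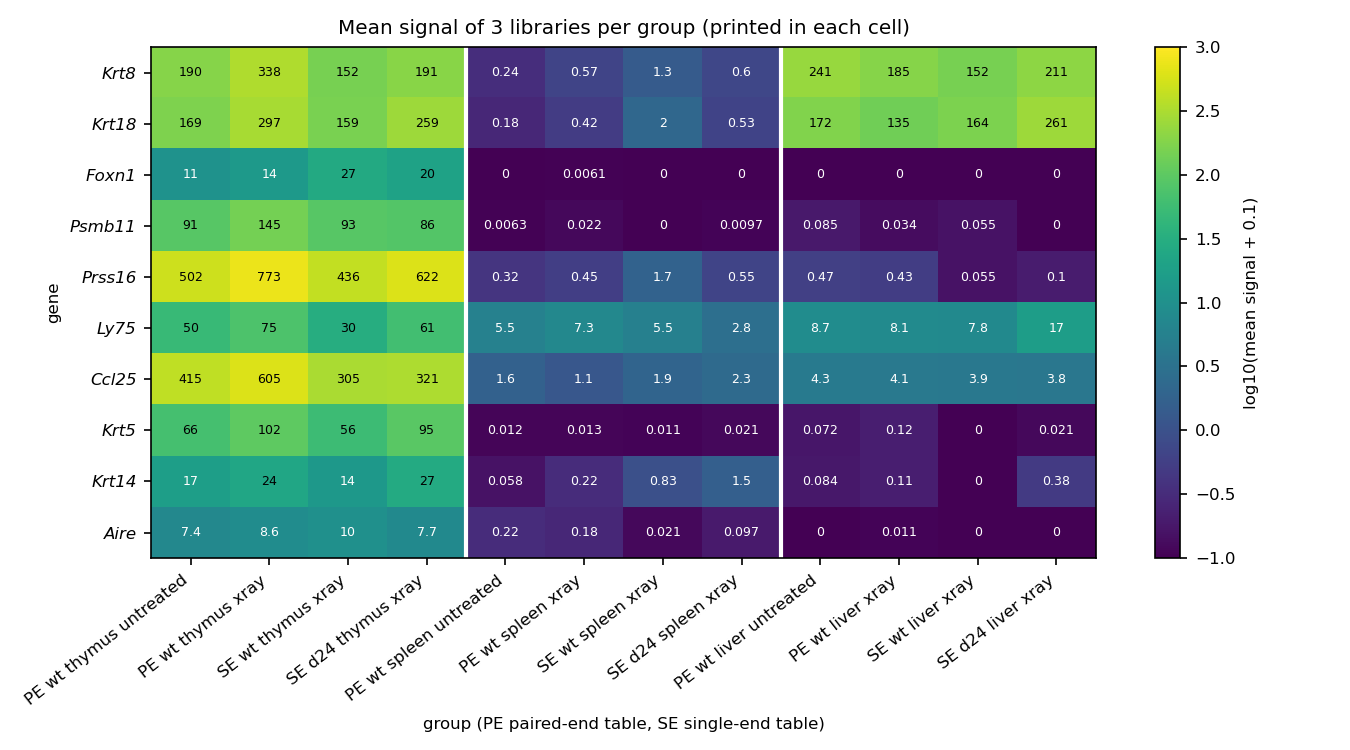
Mean deposited signal of each of the 10 genes (rows) in each of the 12 groups of 3 libraries (columns, thymus, spleen and liver from left to right; PE paired-end and SE single-end table), coloured on a log10 scale after adding 0.1. Foxn1 reached 10.8 to 27.2 in thymus and at most 0.00608 in any spleen or liver group, while Krt8 and Krt18 had means of 135 to 261 in the liver groups.

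After X-rays, 4 genes of cortical function (Psmb11, Prss16, Ccl25 and Ly75), both simple keratins and Krt5 rose in wt thymus. Of the 10 members 7 were called higher and 0 lower, against 9.77% of 13810 genes called higher and 11.6% called lower. All 10 differences were above 0, with a median of 0.58 on the log2 scale, while the median over all genes tested was 0.01. In 7 members the 3 X-ray libraries all lay above the 3 untreated ones, and groups lay apart in either direction for 40.6% of all genes.

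Krt8, a filament protein of cortical epithelium, was at 187, 196 and 187 in the untreated libraries and at 330.2, 321 and 363 after X-rays. The lowest X-ray library stood far above the highest untreated one, a difference of 0.83 ± 0.08 (1.78-fold, adjusted p = 0.000201). Its partner Krt18 was at 158, 175 and 173 untreated and at 312, 266 and 313 after X-rays. The groups did not overlap (0.81 ± 0.09, adjusted p = 0.000466). Per kilobase, the ratio of Krt8 to Krt18 was 0.793 to 0.868 in untreated and 0.777 to 0.885 in X-ray thymus, so the ranges of this ratio overlapped.

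Among the genes of cortical function, Psmb11 was at 87.0, 97.3 and 89.1 untreated and at 129, 156 and 151 after X-rays. It rose by 0.67 ± 0.09 (adjusted p = 0.00141), with no overlap. Prss16 was at 499, 522 and 483 untreated and at 664, 812 and 843 after X-rays. It rose by 0.62 ± 0.11 (adjusted p = 0.00546). Ccl25 was at 430.0, 423 and 393 untreated and at 604, 637 and 573 after X-rays. Its rise was 0.54 ± 0.09 (adjusted p = 0.00369). Ly75 was at 44.8, 54.2 and 52.0 untreated and at 57.5, 79.6 and 89.0 after X-rays. The groups of Ly75 lay only slightly apart (0.56 ± 0.15, adjusted p = 0.0264), and its call was lost in 5 of 18 alternatives, 4 of which left out 1 library (untreated replicate 1 or 3, X-ray replicate 2 or 3), where the adjusted p reached 0.0892.

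Foxn1, the regulator on which several of these genes depend, was at 8.70, 11.1 and 12.5 untreated and at 11.0, 14.9 and 16.8 after X-rays. The groups overlapped and the difference of 0.38 ± 0.17 did not pass (adjusted p = 0.143). It passed with a replicate block (adjusted p = 0.0149), with Xist as a covariate (0.51, adjusted p = 0.0389) and without X-ray replicate 1 (0.55, adjusted p = 0.0355).

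The medullary members were less uniform. Krt5 was at 64.3, 60.4 and 73.1 untreated and at 94.9, 85.1 and 126 after X-rays, and rose by 0.61 ± 0.14 (adjusted p = 0.0135) without overlap. Krt14, its filament partner, was at 23.7, 11.7 and 16.8 untreated and at 21.9, 20.5 and 28.3 after X-rays. Its groups overlapped and the difference of 0.47 ± 0.22 did not pass (adjusted p = 0.155), except without untreated replicate 1, the highest untreated library (0.71, adjusted p = 0.0328). Aire was at 7.49, 6.36 and 8.23 untreated and at 9.77, 5.99 and 10.1 after X-rays, and the lowest of these 6 libraries was irradiated. Its difference was 0.19 ± 0.19 (adjusted p = 0.516) and passed in 0 of 19 settings. Whether the difference of Aire is smaller than that of Krt8 was not tested.

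**Figure D2:**
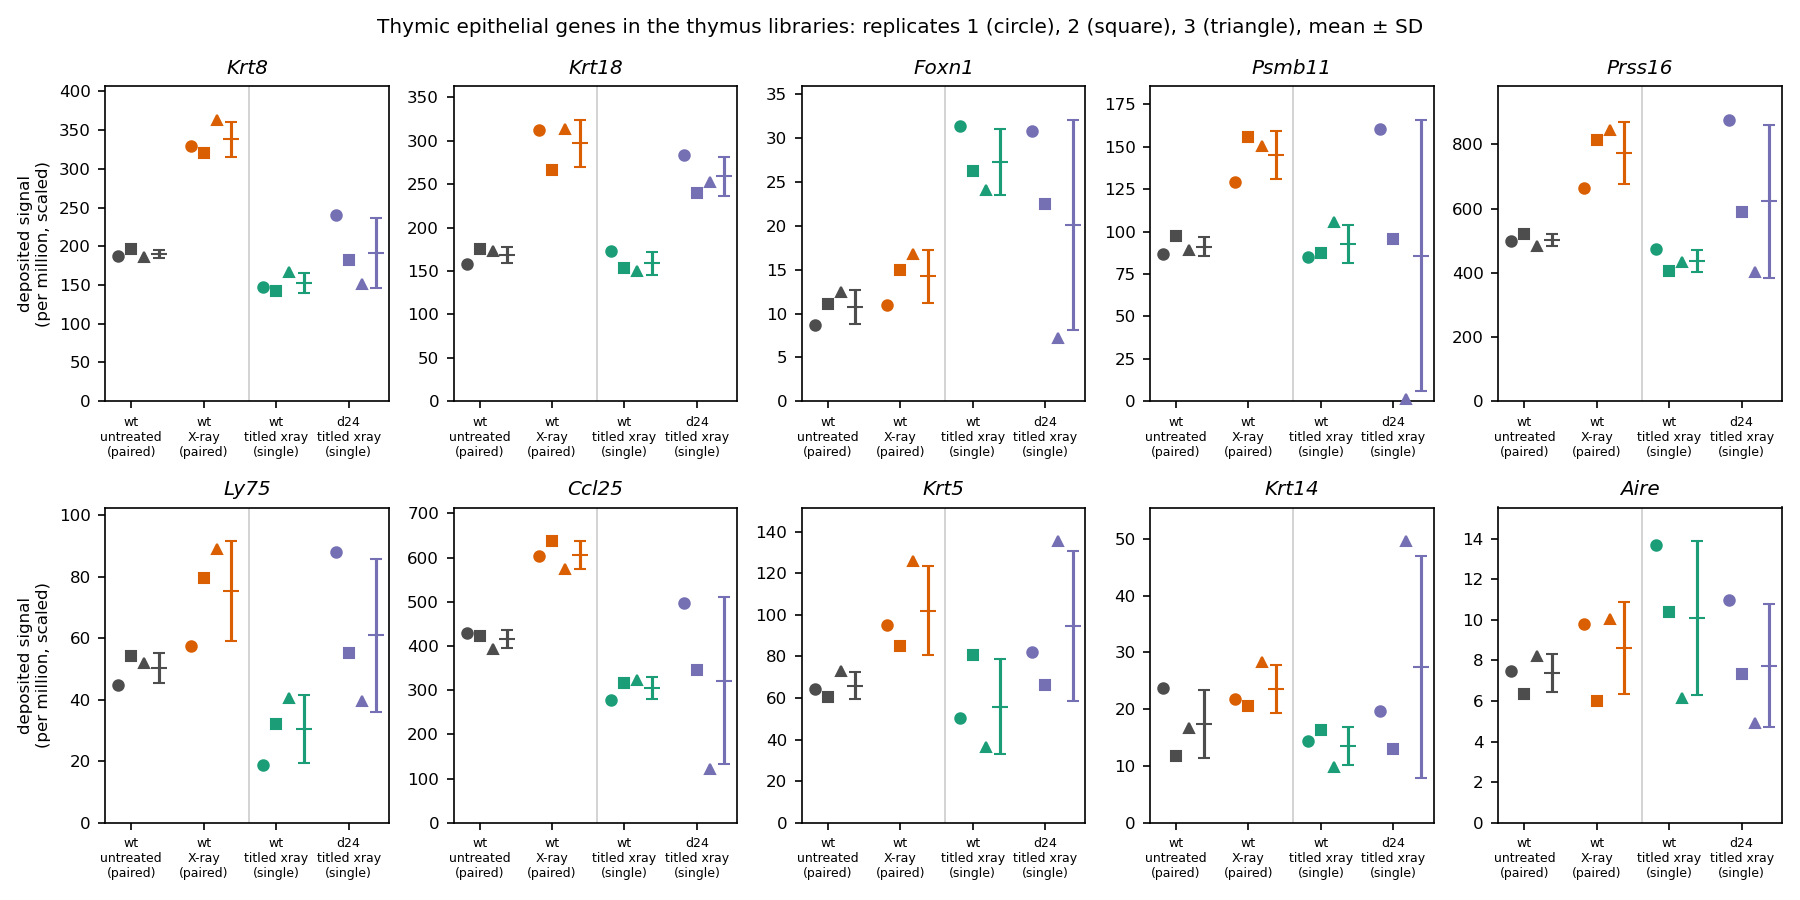
Deposited signal (vertical axes, from 0) of the 10 genes in the 12 thymus libraries, 1 point per library with its replicate shown by the symbol, and the mean ± SD of each group of 3. In the paired-end groups on the left of each panel, X-ray points lie above untreated points for 7 genes, and on the right Psmb11 of d24 replicate 3 stands at 1.35.

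Other genes of the thymic stroma that were not members were read beside them, and the shares of all genes called, 9.77% higher and 11.6% lower, apply to each count. Of 13 tested genes of epithelial identity, 8 were called higher and 0 lower, with a median of 0.52. Among the 13, Krt15 was at 0.496 to 0.622 untreated and 1.19 to 1.80 after X-rays. It met the minimum for testing only through the X-ray group, so its direction is fixed and nothing is read from it. The 13 genes and their median still include Krt15. The genes called higher included Sfn, a cell cycle regulator of stratified epithelium and known p53 target. Sfn was at 19.8 ± 1.95 untreated and 31.8 ± 3.14 after X-rays (0.67 ± 0.10, adjusted p = 0.00271). Trp63, the p53 relative that maintains epithelial progenitors, rose from 16.9 ± 1.45 to 28.2 ± 5.16 (0.71 ± 0.13, adjusted p = 0.00665), and Itgb4, an integrin of the basement membrane, from 7.26 ± 0.555 to 11.6 ± 1.39 (0.64 ± 0.12, adjusted p = 0.00634). Of 10 further cortical genes 4 were called higher, among them Tbata, made by cortical epithelium (308 ± 6.19 to 521 ± 32.4, 0.76 ± 0.08, adjusted p = 0.000458), and the chemokine Cxcl12 (139 ± 8.87 to 206 ± 19.6, 0.57 ± 0.09, adjusted p = 0.00347). Ctsl, the protease that cortical cells use for class II peptides, rose from 1095 ± 68.4 to 1651 ± 70.3 (0.59 ± 0.11, adjusted p = 0.00689).

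Of 11 further medullary genes 3 were called higher. Cd80, a costimulatory ligand also made by other antigen-presenting cells, rose from 4.78 ± 0.725 to 10.9 ± 1.19 (1.11 ± 0.14, adjusted p = 0.000983). Spib, a transcription factor of medullary and lymphoid cells, rose from 23.1 ± 5.02 to 45.5 ± 3.81 (0.98 ± 0.14, adjusted p = 0.00197), and the keratin Krt17 from 70.5 ± 5.66 to 108.6 ± 14.2 (0.61 ± 0.11, adjusted p = 0.00439). Cldn3, among the 11 but not the 3, was at 0.545 to 0.892 untreated and 1.07 to 1.58 after X-rays. It too met the minimum only through the X-ray group, and nothing is read from it. Counts of 1 or 2 in the short lists that follow are not read as results about those lists. Of 9 genes of the medullary growth signals, 2 were called higher, led by the receptor Ltbr (0.64 ± 0.11, adjusted p = 0.00381). Of 6 genes of thymic tuft-like cells 0 were called. None of the other catalytic proteasome subunits tested was called except Psmb10 (0.42 ± 0.09, adjusted p = 0.0134), 1 of 6.

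Markers of other cells in the organ were read beside these rises, against the same shares of all genes. The summed signal of 12 thymocyte genes was 7966 to 9111 untreated and 7952 to 10079 after X-rays. The signal is a share of each library and thymocytes make up most of the organ, so this sum does not measure their number. Of the 12 genes 1 was called, Ptcra, the pre-T cell receptor chain, lower by 0.71 ± 0.10 (adjusted p = 0.00173). None of 8 fibroblast, 8 endothelial or 8 dendritic cell genes was called. The endothelial sum was 125 to 140.1 untreated and 144 to 159 after X-rays, without overlap. The sums overlapped for fibroblast genes (181 to 278 untreated, 175 to 260.5 after X-rays) and dendritic cell genes (31.1 to 42.1 untreated, 32.1 to 43.4 after X-rays). Of 8 macrophage genes 4 were called higher, with summed signals of 222 to 287 untreated and 292 to 428 after X-rays, and of 8 class II genes 3 were called higher (1795 to 2488 untreated, 2443 to 3032 after X-rays). The 8 hepatocyte genes summed to 60.1 to 219 untreated and to 178, 199 and 1555 in X-ray replicates 1 to 3, Alb alone reaching 951 in the last. Of these only Ass1, the urea cycle enzyme argininosuccinate synthase, was called (1.52 ± 0.11, adjusted p = 2.69e-05). Without X-ray replicate 3 the same test called 6 members, all but Ly75 of the 7. The part of macrophages, and of any change in the number of thymocytes, in the members' rise was not tested.

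X-ray differences of the members outside thymus could be measured for few genes. In spleen only Ly75 and Ccl25 had a mean signal of at least 1 in both groups, and 0 of the 2 passed, in a tissue where 40.0% of all genes were called. Ccl25 stood at 1.65 ± 0.226 untreated and 1.10 ± 0.171 after X-rays (-0.42 ± 0.16, adjusted p = 0.0568), with no overlap, and Ly75 at 5.54 ± 1.03 and 7.27 ± 1.22 (0.37 ± 0.17, adjusted p = 0.117). Both passed without X-ray spleen replicate 1, Ccl25 at -0.50 and Ly75 at 0.50. In liver 0 of 4 measured members passed, where 0.242% of all genes were called. Krt8 was 241 ± 16.7 untreated and 185 ± 54.6 after X-rays (-0.42 ± 0.21, adjusted p = 0.260), and Krt18 was 172 ± 25.3 and 135 ± 32.0 (-0.37 ± 0.19, adjusted p = 0.279).

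The difference between tissues was tested itself. The X-ray difference of Krt8 was higher in thymus than in liver by 1.25 ± 0.25 (adjusted p = 0.0134) and that of Krt18 by 1.18 ± 0.23 (adjusted p = 0.0131), and both passed in all 25 settings. Ccl25 differed between thymus and liver by 0.62 ± 0.16 (adjusted p = 0.0331), a call kept in 14 of 25 settings, while Ly75 (0.67 ± 0.23, adjusted p = 0.0721) did not pass. Among all genes 5.64% were called higher in this test. Against spleen, the X-ray difference of Ccl25 was higher in thymus by 0.97 ± 0.15 (adjusted p = 0.00136, in all 25 settings) and that of Ly75 by 0.19 ± 0.25 (adjusted p = 0.659), where 7.22% of all genes were called higher. Psmb11 also passed against both tissues, but with at most 8 reads in any paired-end spleen or liver group these values depend on the pseudocount. The thymus comparisons with spleen and liver share the thymus libraries.

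**Figure D3:**
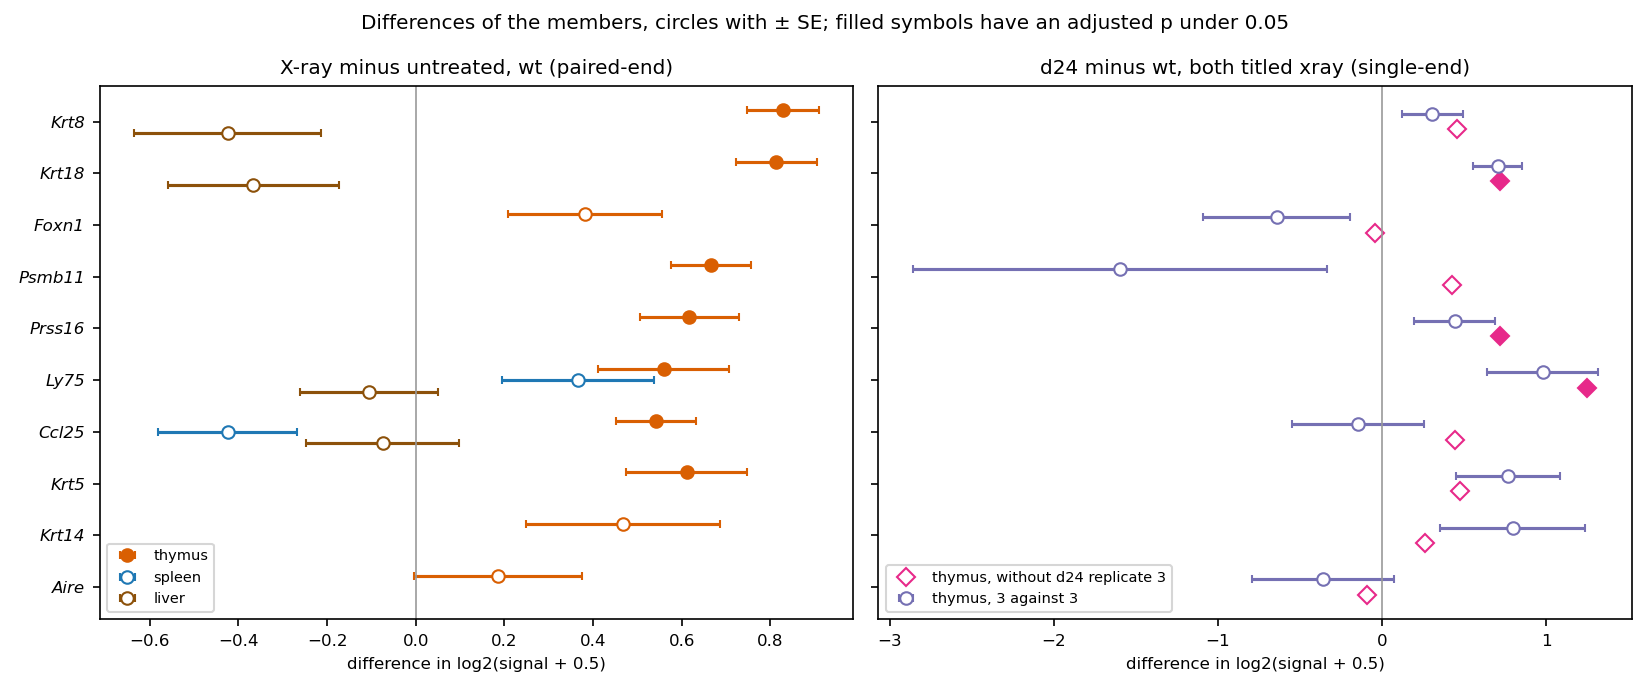
Differences in log2(signal + 0.5) of the 10 genes, on the left for X-ray minus untreated in wt thymus, spleen and liver with ± SE, on the right for d24 minus wt in single-end thymus with ± SE (circles) and without d24 replicate 3 (diamonds), with filled symbols for an adjusted p under 0.05. On the left 7 thymus symbols are filled and 0 of the spleen or liver ones, and on the right Psmb11 moves from -1.60 to 0.43.

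Between d24 and wt thymus, both titled xray, 0 of the 10 members were called, and only 1 of 13818 genes (0.00724%) passed at all. At an unadjusted p under 0.05, Krt5, Krt18 and Ly75 passed. In Krt5, Krt14, Foxn1, Psmb11 and Ccl25, d24 replicate 3 lay farther from replicate 2 in signal than replicate 1 did.

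Krt18 was at 284, 240.3 and 253 in d24 and at 173, 153 and 149.6 in wt. Its groups did not overlap, which held for 1 of 10 members and for 16.6% of all genes, and its difference was 0.70 ± 0.15 (limma, adjusted p = 0.220, from 0.00111 to 0.775 over 19 settings). DESeq2 on the recovered reads called it (0.72, adjusted p = 0.00111), and edgeR did not. Krt8 was at 240.1, 182 and 151 in d24 and at 148, 142 and 167 in wt, with overlap (0.30 ± 0.19, adjusted p = 0.627). The ratio of Krt8 to Krt18 per kilobase was 0.622, 0.556 and 0.439 in d24 and 0.626, 0.682 and 0.818 in wt, so each d24 library lay below each wt one, with 0.622 against 0.626 the closest pair. In liver of the same table this ratio was 0.540 to 0.648 in d24 and 0.580 to 0.785 in wt, which overlapped. These ratios were chosen after their values were seen and were not tested.

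The cortical genes were spread widely within d24. Psmb11 was at 160.4, 95.8 and 1.35 in d24, the last from 44 reads, and at 85.0, 87.1 and 105 in wt. Replicate 1 was above all wt libraries and replicate 3 was almost without the transcript (-1.60 ± 1.26, adjusted p = 0.708). Ccl25 was at 497, 344 and 122 in d24 and at 277, 317 and 322 in wt (-0.15 ± 0.40, adjusted p = 0.924). Prss16 was at 876, 588 and 401 in d24 and at 473, 404 and 432 in wt (0.44 ± 0.25, adjusted p = 0.595). In both genes d24 replicates 1 and 2 were above every wt library and replicate 3 was below every one. Foxn1 was at 30.8, 22.4 and 7.18 in d24 and at 31.4, 26.3 and 24.1 in wt (-0.64 ± 0.45, adjusted p = 0.665). Ly75 was at 88.0, 55.3 and 39.4 in d24 and at 18.7, 32.1 and 40.6 in wt (0.98 ± 0.34, adjusted p = 0.370), so only d24 replicate 3 fell within the wt range.

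The medullary keratins ran the other way in the same library. Krt5 was at 82.3, 66.3 and 135 in d24 and at 50.5, 80.8 and 36.3 in wt (0.77 ± 0.32, adjusted p = 0.484). Krt14 was at 19.7, 13.0 and 49.6 in d24 and at 14.5, 16.3 and 9.89 in wt (0.80 ± 0.44, adjusted p = 0.593). Replicate 3 was the highest of the 6 libraries for both. Aire was at 11.0, 7.34 and 4.91 in d24 and at 13.7, 10.4 and 6.14 in wt (-0.36 ± 0.43, adjusted p = 0.807), again with replicate 3 the lowest.

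Set against the mean of d24 replicates 1 and 2, replicate 3 held 0.0105 times as much Psmb11, 0.270 times as much Foxn1 and 0.289 times as much Ccl25. Prss16, Aire and Ly75 were at 0.537 to 0.551 times that mean, Krt8 at 0.718 and Krt18 at 0.966. Krt5 was at 1.82 times and Krt14 at 3.03 times the mean. Psmb11 was thus nearly absent from a library in which Prss16, known from the same cortical cells, had a signal of 401.

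Genes that were not members divided in the same library. Tbata was at 498, 342 and 78.2 in d24 replicates 1 to 3, and Cd83 at 115, 62.3 and 34.8. Ctsl was at 1307, 973 and 2712 and Trp63 at 30.7, 37.0 and 148. The 12 thymocyte genes summed to 9565, 10959 and 6757 in d24 and to 11380 to 12237 in wt, with Ptcra at 30.8, 24.8 and 8.65 in d24. Fibroblast genes summed to 287, 481 and 1107 in d24 against 140.4 to 255 in wt, with the collagen gene Col3a1 at 587 in replicate 3. Class II genes summed to 2885 in replicate 3 and macrophage genes to 487, against at most 1454 and 179 in wt. The 8 hepatocyte genes summed to 39.2, 101 and 1317 in d24 and to 5.03 to 15.8 in wt, and the p53 target Cdkn1a was at 25.8, 20.4 and 67.8. The part of other cell types, of tissue sampling and of the p53 response in the members' values was not tested.

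**Figure D4:**
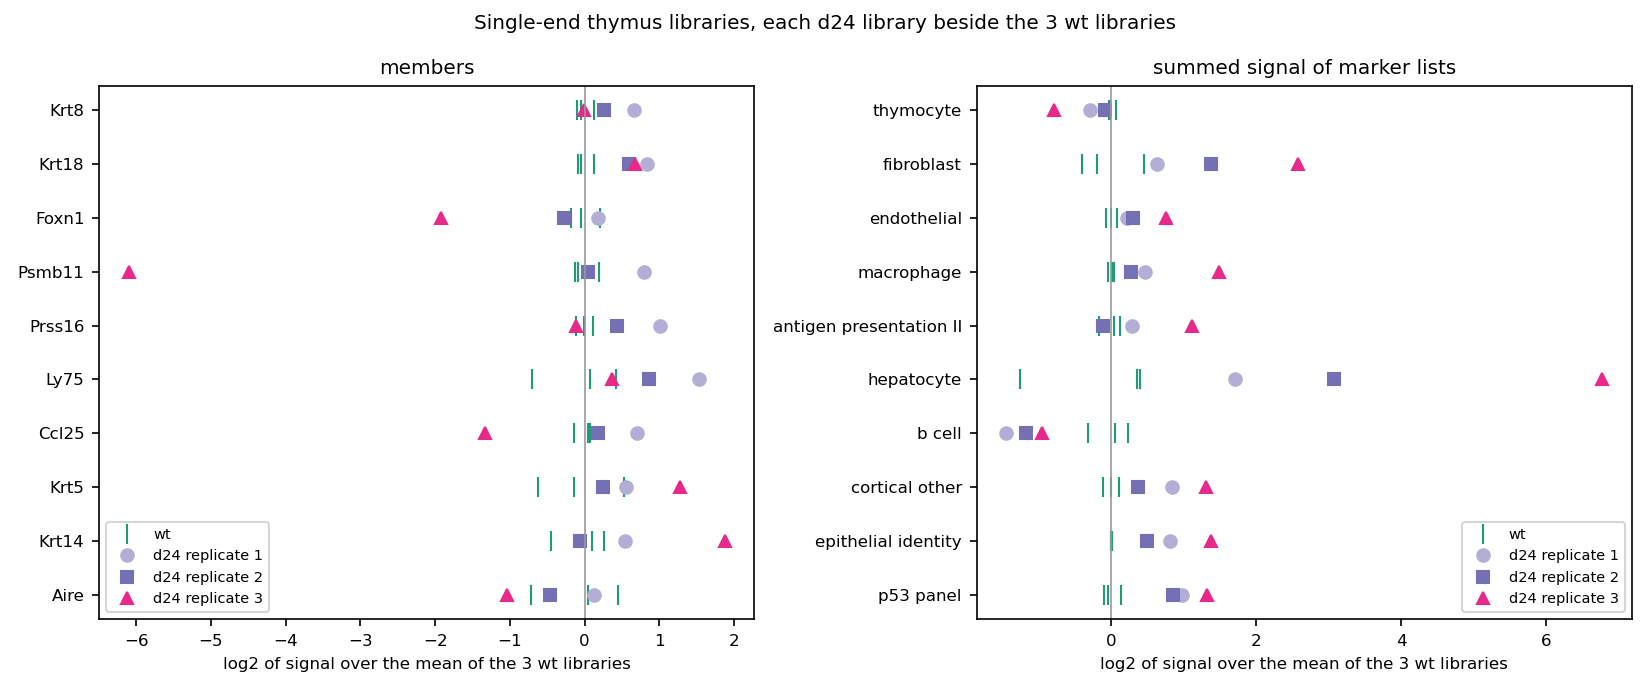
Single-end thymus, each d24 library (circle, square and triangle for replicates 1 to 3) and each wt library (bars) as log2 of its signal over the mean of the 3 wt libraries, for the 10 members on the left and for summed marker lists on the right. The triangle of Psmb11 lies near -6 and those of Krt5 and Krt14 lie above all other libraries, as do those of the fibroblast and hepatocyte sums on the right.

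Without d24 replicate 3, the test of 2 against 3 libraries called 3 members higher, against 0.323% of 13311 genes. They were Krt18 (0.72), Prss16 (0.72, adjusted p = 0.0174) and Ly75 (1.25, adjusted p = 0.0352). Psmb11 (0.43) and Ccl25 (0.44) then changed sign without passing, and Foxn1 (-0.04) and Aire (-0.09) lay near 0. Replicate 3 was singled out after the members' values were seen. It held the lowest d24 signal of Prss16 and Ly75, so leaving it out raised their differences, and their calls are partly built in. Of 19 settings, Prss16 and Ly75 were called in this 1 only and Krt18 in 2. With all 6 libraries, 12 of 12 tested genes of epithelial identity had positive differences, with a median of 0.64 against -0.02 over all genes, and 0 were called. Among them Dsp, a desmosome protein, was at 144 ± 30.2 in d24 and 60.3 ± 9.79 in wt (1.24 ± 0.20, adjusted p = 0.106). Of 9 further cortical genes, 6 had positive differences and 0 were called. Cxcl12 was at 275 ± 40.6 in d24 and 147 ± 18.7 in wt (0.90 ± 0.17, adjusted p = 0.156), and the T cell growth factor gene Il7 at 44.8 ± 3.70 and 23.7 ± 0.859 (0.90 ± 0.20, adjusted p = 0.229). Of 10 further medullary genes, 5 had positive and 5 negative differences and 0 were called. Fibroblast, endothelial and macrophage genes also had positive differences throughout (8 of 8 each, 0 called).

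In single-end spleen 0 of 2 measured members passed between d24 and wt, where 2.28% of all genes were called. Ly75 was at 2.76 ± 1.97 in d24 and 5.46 ± 1.02 in wt (-1.10 ± 0.59, adjusted p = 0.475). In liver 0 of 4 passed, where 0.526% were called. Krt18 was at 261 ± 84.9 in d24 and 164 ± 34.0 in wt (0.64 ± 0.29, adjusted p = 0.372), and Ly75 at 16.9 ± 7.66 and 7.77 ± 2.37 (1.02 ± 0.43, adjusted p = 0.346). The positive differences of Krt18 and Ly75 between d24 and wt thymus had counterparts of the same sign in liver, none of which passed. Ly75 had the opposite sign in spleen. By treatment tag, d24 thymus and liver are control and their wt libraries X-ray, while d24 spleen is X-ray and wt spleen control. In spleen and liver too, the difference between d24 and wt thus cannot be told apart from a difference in treatment. Krt8, Krt14, Krt18 and Prss16 reached a signal above 1 in some libraries of single-end spleen, up to 4.18 for Krt18 in wt. Prss16 ran from 1.16 to 2.47 in wt and from 0.0290 to 1.60 in d24 spleen of that table.

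Members were also compared library by library, after the mean of each group was subtracted from the log2 values of the 12 thymus libraries. The points share the scaling of their library, and the correlations are descriptions. Psmb11 and Ccl25 gave the highest Pearson r, 0.98, followed by Foxn1 with Psmb11 at 0.92 and Foxn1 with Prss16 at 0.91. Krt5 and Krt14 correlated with each other at 0.80, and Krt14 was opposed to Psmb11 at -0.78 and to Ccl25 at -0.72. Part of this rests on d24 replicate 3. Without it Psmb11 and Ccl25 correlated at 0.84, Krt8 and Psmb11 at 0.88 and Krt5 and Krt14 at 0.68, while Foxn1 and Psmb11 gave 0.48 and Krt14 and Psmb11 0.05. Krt18 and Aire correlated at 0.73 with and 0.79 without that library.

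By the rule for genes of like pattern, the 8 genes of highest r with the mean standardised residual of the members were Ttc19, Rrs1, Dll4, Abhd17c, Flt3l, Col15a1, Tle3 and Slc39a6, with r from 0.949 to 0.913, among 11377 genes at or above a signal of 1 in all 12 libraries. Dll4, the Notch ligand of cortical epithelium that commits precursors to the T lineage, gave 0.928. Its signal in d24 was 23.2, 8.18 and 6.35. Without d24 replicate 3 the 8 were Pax1, Zbtb10, Trim46, Cobll1, Slc39a6, Fam174b, Abhd17c and Ttc19, led by Pax1, a transcription factor of the pharyngeal pouch from which the thymus grows, with r of 0.953. The lists share 3 genes. Krt5 (r of -0.11) and Krt14 (-0.33) ran against the members' mean over the 12 libraries, so that mean does not stand for all members, while without d24 replicate 3 they gave 0.49 and 0.53.

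**Figure D5:**
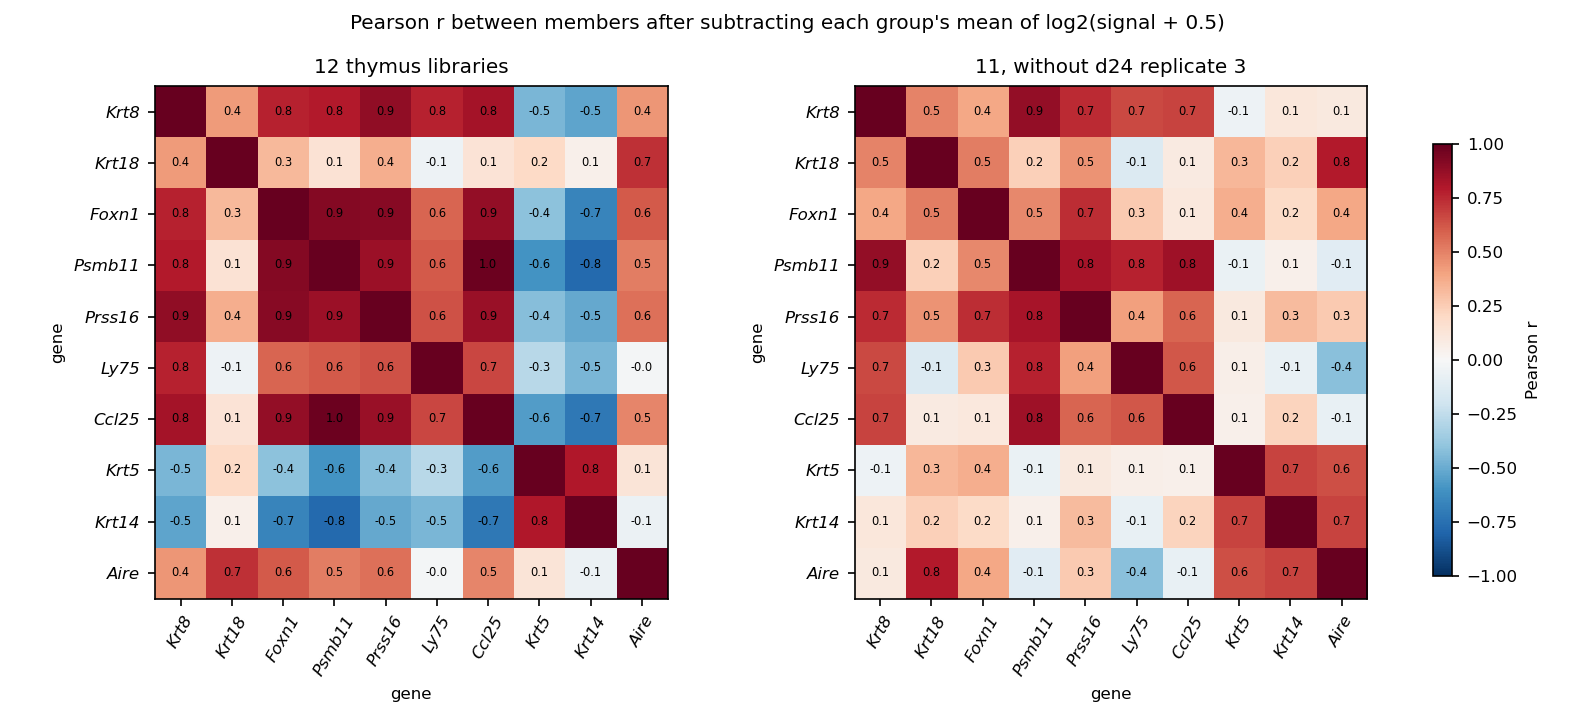
Pearson r (colour and printed value) between members, gene by gene on both axes, over the 12 thymus libraries on the left and over 11 without d24 replicate 3 on the right, after subtracting each group's mean. Krt5 and Krt14 are negatively related to Krt8, Foxn1, Psmb11, Prss16, Ly75 and Ccl25 on the left, with r of -0.78 for Krt14 and Psmb11. On the right r lies between -0.07 and 0.37 for these pairs.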

How the data were processed

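The authors deposited 1 table per layout, whose values are a signal per gene: per the values, whole reads per 1000000 of a scaled library size (100% of values whole within 0.01 of a step), the form of CPM after a composition factor. Plain CPM had been assumed. The submitters' processing notes name edgeR and mm10; the aligner and the counting program are not stated there. A further 18 columns could be tied to no sample by name and were left out.

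Groups follow the titles. A gene entered a comparison when 3 or more of its libraries reached a signal of 1. Tests used limma 3.58.1 in R 4.3.3, with a moderated variance that follows the mean, on values of log2(signal + 0.5), Benjamini-Hochberg adjusted over all genes tested, threshold 0.05, within 1 table; the code was tested on simulated data. Outside thymus, differences are given for members with a mean of at least 1 in every group compared. Alternatives included edgeR 4.0.16 and DESeq2 1.42.0 on recovered reads. The named genes are all members, up to 4 genes per list by smallest p, and the 8 of like pattern. Members and lists were chosen with earlier results of these data known. Same-numbered libraries deviated together in every pair for X-ray spleen (r 0.177 to 0.241) and untreated thymus against spleen (0.143 to 0.303). The check used took the numbers as pairing the libraries there. The main fits are without the block, which changed no call of a member in those comparisons. In X-ray thymus r was also positive in every pair (0.0554 to 0.476), as in untreated thymus against liver (0.0691 to 0.203). Whether the numbers pair the libraries of these is undecided. The hepatocyte, cholangiocyte, B cell, parathyroid, muscle and fat, and chemokine receptor lists were read too, and in X-ray thymus 1, 0, 0, 0, 0 and 1 of their genes were called higher and 0, 0, 0, 0, 0 and 2 lower.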

Additional observations from a re-analysis of the deposited data

Results flagged for a closer look

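The X-ray difference of 4 members was called different between tissues by a test of that difference (limma interaction). The call of Psmb11 is not read as a result. Against liver, the X-ray difference of thymus was higher by 1.25 for Krt8, 1.18 for Krt18, 0.62 for Ccl25 and 0.79 for Psmb11 on the log2 scale. Against spleen it was higher by 0.97 for Ccl25 and 0.62 for Psmb11. Among all genes 5.64% were called higher against liver and 7.22% against spleen. Psmb11 had 1 and 3 reads in the untreated and X-ray spleen groups and 8 and 3 in the liver ones, so its values are set by the pseudocount, and edgeR and DESeq2 gave the opposite sign against spleen.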

How the results depend on the processing

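In X-ray thymus 6 members (Krt5, Krt8, Krt18, Psmb11, Prss16 and Ccl25) were called in each of 19 settings, the count of 7 ran from 6 to 8, and no difference changed sign. The replicate block gave 8, adding Foxn1, and 4270 genes in place of 2945 (1576 to 2851 when 1 library was left out, 1940 in 1 fit of all libraries). The check used did not take the numbers as pairing the thymus libraries. Yet r was positive in every pair, so whether the block applies is undecided. The block left every other count of members as it was. In d24 thymus the count of 0 was 1 with DESeq2 and 0 to 3 when 1 library was left out, over which Psmb11 ran from -2.79 to 0.43 and Ccl25 from -0.57 to 0.44; Ccl25 was 0.07 with edgeR (0.073) and DESeq2 (0.074). All genes called there numbered 0 to 266. On the recovered reads edgeR called 2989 genes in X-ray thymus and 2 in d24 thymus, and DESeq2 3677 and 266. In X-ray spleen the count of 0 was 1 with quantile scaling, without trend and in 1 fit, and 0 to 2 when 1 library was left out. Ccl25 in X-ray liver was 0.06 (0.056) with quantile scaling and -0.18 to 0.04 (0.042) with 1 library left out. In d24 liver it was 0.16 with quantile scaling, 0.02 with edgeR (0.020) and DESeq2 (0.017), 0.07 (0.070) with Xist and -0.54 to 0.40 (0.400) with 1 left out. Genes called elsewhere ran from 9 to 2836 (X-ray liver), 3136 to 7037 (X-ray spleen), 45 to 597 (d24 spleen), 4 to 531 (d24 liver), 1228 to 3450 (thymus minus spleen) and 572 to 4445 (thymus minus liver).

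Leaving out 1 library moved the count of members from 10 to between 2 and 10 for thymus against spleen and from 9 to between 3 and 9 against liver, since fewer members then met the filter. Krt18 against liver was 0.07 (0.074) with median-ratio and 1.00 (0.996) with quantile scaling, 0.18 with edgeR, 0.13 with DESeq2 and -0.15 to 0.05 (0.046) with 1 left out, and Krt8 was 0.76 with quantile scaling. For the tissue difference against spleen the count of 2 was 1 at a pseudocount of 0.1, with edgeR and with DESeq2, where Psmb11 was -0.79 and -0.99; against liver the count of 4 was 2 with edgeR and 2 to 5 with 1 library left out. The causes were not tested. Of 871 values of members under alternatives, 803 kept their direction and side of the threshold. Depth limits the low genes, 1 read being worth 0.00991 to 0.0828 of signal.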
